A study of Mus musculus with 14 samples.

Results

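Sox genes encode transcription factors that bind DNA through a high-mobility-group (HMG) box, and 10 of them with known roles in neural cells were examined in granule neuron progenitors (GNPs) of the mouse cerebellum. The genes were chosen by name, as the SoxB1, SoxC, SoxD and SoxE genes of neural cells, out of 41381 genes in the expression table: Sox1, Sox2 and Sox3 (SoxB1), Sox4, Sox11 and Sox12 (SoxC), Sox5 and Sox6 (SoxD), and Sox9 and Sox10 (SoxE). All 10 passed the minimum used for testing, a transcripts-per-million value (TPM) of 1 or more reached in 4 or more libraries. None of the 10 differed between Chd7 genotypes after adjustment over all genes tested.

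SoxB1 factors keep neural progenitors undifferentiated, and SoxC factors act later, when cells leave the cycle and switch on neuronal genes. SoxE factors are known for glia, Sox9 in astroglia and Sox10 in the oligodendrocyte lineage, and SoxD factors, which have no activation domain of their own, modify the action of the other Sox factors at shared sites. Chd7 encodes an ATP-dependent chromatin remodeller that is known from other neural cells as a partner of Sox2 and as an activator of Sox4 and Sox11, which is why these genes were examined here.

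The RNA came from GNPs of mice at postnatal day 7, separated on a Percoll gradient and used without culture. The 5 WT libraries came from mice without Cre, labelled as Chd7 wild type or as Atoh1-Cre negative, which the study describes as floxed. The 5 Het libraries came from Atoh1-Cre::Chd7 f/+ mice and the 4 Hom libraries from Atoh1-Cre::Chd7 f/f mice. The labels give the strain as C56Bl6/J or C57BL/6 and the study's methods give C57BL/6N, and the sex of the pups was not distinguished. Atoh1-Cre acts in the excitatory lineage of the upper rhombic lip, which includes granule cells, and does not target Purkinje cells. The study found Chd7 protein remaining in the posterior lobe and gives weaker recombination there as the probable reason. Cells that the driver does not reach keep Chd7. Sequencing was done in 2 batches, with WT 1 to 3, Het 1 to 3 and Hom 1 and 2 in batch 1 (8 libraries) and WT 4 and 5, Het 4 and 5 and Hom 3 and 4 in batch 2 (6 libraries). The labels do not state that each library came from a separate litter or animal, so p-values measure the spread between these libraries. In RNA from a mixed preparation, fewer cells of a type and less RNA per cell cannot be told apart.

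At the targeted gene, TPM did not fall with the label in both batches. Chd7 was 0.41 higher on the log2 scale in Hom than in WT within batch 1, and it was lower by 0.77 within batch 2 (log2 change -0.77). Over both batches the change was -0.11 (SE 0.20, limma adjusted p 0.862). The study, by contrast, saw Chd7 transcripts fall with genotype by quantitative RT-PCR in GNPs. Its immunostaining showed loss of the protein in Hom granule cells. TPM for the whole gene does not show the floxed part separately, and the cause of the difference was not tested. The groups below are therefore the libraries labelled WT, Het and Hom. GNP markers were present throughout, with Atoh1 at 20.8 to 50.6 TPM. Markers of other cells were present too. The summed TPM of 12 oligodendroglial markers was 699 to 1936 over the groups, and that of 13 astroglial markers was 867 to 3123. WT 1 to 3 stood apart in some Purkinje cell markers and in some markers of other cells. Pcp4 was at 85.8, 94 and 76.2 TPM in them and at 12.3 to 37.3 in all other libraries. Fabp7, an astroglial marker, was at 973, 979 and 670 TPM in them, 593 in Het 3 and 144 to 346 elsewhere. Cldn5, an endothelial marker, was at 9.14, 14 and 11.3 TPM in them, 5.39 in Het 3 and 50.4 to 229 elsewhere. Apoe and Slco1a4 of the same lists did not set these libraries apart, nor did Foxp2, Rora and Itpr1 among the Purkinje cell markers. The values within batch 2 given below do not use WT 1 to 3.

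The Sox genes resemble each other in sequence, above all in the HMG box, so it was first asked whether 50-base reads can tell them apart. The longest identical stretches between 2 members of 1 subfamily are shown in capitals with 12 bases of flank, since they set the limit for assigning a read to 1 gene. They were read from GENCODE transcripts on GRCm38. All bases in capitals are coding. The Sox4 window is chr13:28952737-28952808 (minus strand) and the Sox11 window chr12:27342154-27342225 (minus strand).
Sox4: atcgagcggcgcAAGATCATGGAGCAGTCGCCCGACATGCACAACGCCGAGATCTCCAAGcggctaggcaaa
Sox11: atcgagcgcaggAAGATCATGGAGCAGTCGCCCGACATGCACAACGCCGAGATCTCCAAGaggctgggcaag
The SoxB1 pair lies at chr8:12396715-12396783 (plus strand, Sox1) and chrX:60892729-60892797 (minus strand, Sox3).
Sox1: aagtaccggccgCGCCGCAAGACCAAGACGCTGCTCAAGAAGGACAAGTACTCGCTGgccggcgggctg
Sox3: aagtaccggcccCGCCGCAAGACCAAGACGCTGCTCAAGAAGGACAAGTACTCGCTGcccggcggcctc
The SoxE pair lies at chr11:112782819-112782886 (plus strand, Sox9) and chr15:79163418-79163485 (minus strand, Sox10).
Sox9: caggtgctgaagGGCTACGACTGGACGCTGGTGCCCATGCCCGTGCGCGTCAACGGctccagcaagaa
Sox10: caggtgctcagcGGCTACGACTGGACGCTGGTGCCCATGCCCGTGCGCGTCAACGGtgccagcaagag
The runs were 48, 45 and 44 bases long, each shorter than a read. No 50-base window of any member was found in another member, so reads without mismatches could be assigned to 1 member. Reads with mismatches were not examined.

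Another overlap bears on Sox4. Sox4 is a single-exon gene on the minus strand (ENSMUSG00000076431; GRCm38 chromosome 13, 28948919 to 28953713), and the non-coding RNA Gm26735 runs over it on the opposite strand. Of the 50-base windows of Sox4, 54.1% also lie in Gm26735 on that strand. The annotation gives 0.774% of Sox1 windows and 8.98% of Sox5 windows as shared with other transcripts, and 0% for the other 7 members. The study states default parameters for RSEM, which do not use strand, so reads of Sox4 and Gm26735 may be mixed in both TPM values. Gm26735 had a TPM of 46.7, 46.3, 54.5, 38.4 and 39.6 in WT 1 to 5, of 87.7, 72.6, 70, 57.1 and 35.8 in the Het libraries, and of 46.3, 116, 20.6 and 37.8 in the Hom libraries. It was highest in Hom 2 and lowest in Hom 3, and the groups overlap. Its Hom change was 0.097 (SE 0.27, limma adjusted p 0.919). Sox2 lies within the span of Sox2ot, which was not analysed here.

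Promoter sequence was examined for Sox4 and Sox11, the SoxC genes with the highest levels. They also varied together in batch 2 and not in batch 1, as given below with further limits. The 250 bases before the RefSeq start are shown (RefSeq, GRCm38), with matches to the CCAAT box (CCAAT or ATTGG) and to the Sox core motifs ACAAAG and ACAATG on either strand in capitals. The Sox4 stretch is chr13:28953700-28953949 and the Sox11 stretch is chr12:27342719-27342968, both on the minus strand.
Sox4: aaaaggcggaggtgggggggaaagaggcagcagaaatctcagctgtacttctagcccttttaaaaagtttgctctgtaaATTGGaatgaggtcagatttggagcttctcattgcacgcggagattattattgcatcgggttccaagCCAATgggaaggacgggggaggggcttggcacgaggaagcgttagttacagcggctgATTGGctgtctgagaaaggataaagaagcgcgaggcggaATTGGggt
Sox11: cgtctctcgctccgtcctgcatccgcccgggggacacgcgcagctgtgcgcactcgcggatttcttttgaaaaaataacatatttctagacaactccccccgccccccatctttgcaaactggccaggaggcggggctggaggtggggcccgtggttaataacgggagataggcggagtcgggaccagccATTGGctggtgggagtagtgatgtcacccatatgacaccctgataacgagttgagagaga
The Sox4 stretch held 4 CCAAT matches and the Sox11 stretch 1, and neither held a Sox core motif. Of 32851 promoters of the same length, 33.85% held a CCAAT match, 16.46% ACAAAG and 10.69% ACAATG. Promoters were found for 7 of the 10 members. The matches describe the letters and were not tested as binding sites.

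The SoxC genes dominated the family in these progenitors. In the 5 WT libraries Sox11 had the highest mean TPM (172 ± 18.7, SD, n = 5), followed by Sox4 (130 ± 30, SD, n = 5) and Sox12 (61.5 ± 18.2, SD, n = 5). The 3 SoxC genes held 70.6% to 80% of the summed TPM of the 10 genes in each library. Sox11 was above Sox4, and Sox4 above Sox12, in all 14 libraries, although the WT ranges of Sox11 and Sox4 overlap. The order of Sox11 and Sox4 may also depend on how reads shared by Sox4 and Gm26735 were assigned, which was not tested.

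Below the SoxC genes came a group of 4 with WT means close together: Sox9 at 25.3 ± 12 (SD, n = 5), Sox2 at 24.9 ± 4.02 (SD, n = 5), Sox10 at 21.1 ± 6.08 (SD, n = 5) and Sox5 at 20.7 ± 3.8 (SD, n = 5). Their WT ranges overlap from neighbour to neighbour, and no order among them can be read beyond the spread. Sox6 (6.66 ± 1.2, SD, n = 5) and Sox1 (6.29 ± 1.33, SD, n = 5) followed and also overlap. Sox3 was lowest at 1.29 ± 0.404 (SD, n = 5), below Sox1 in all 14 libraries. TPM is scaled by transcript length, so these levels can be set side by side, with the limit given for Sox4.

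**Figure D1:**
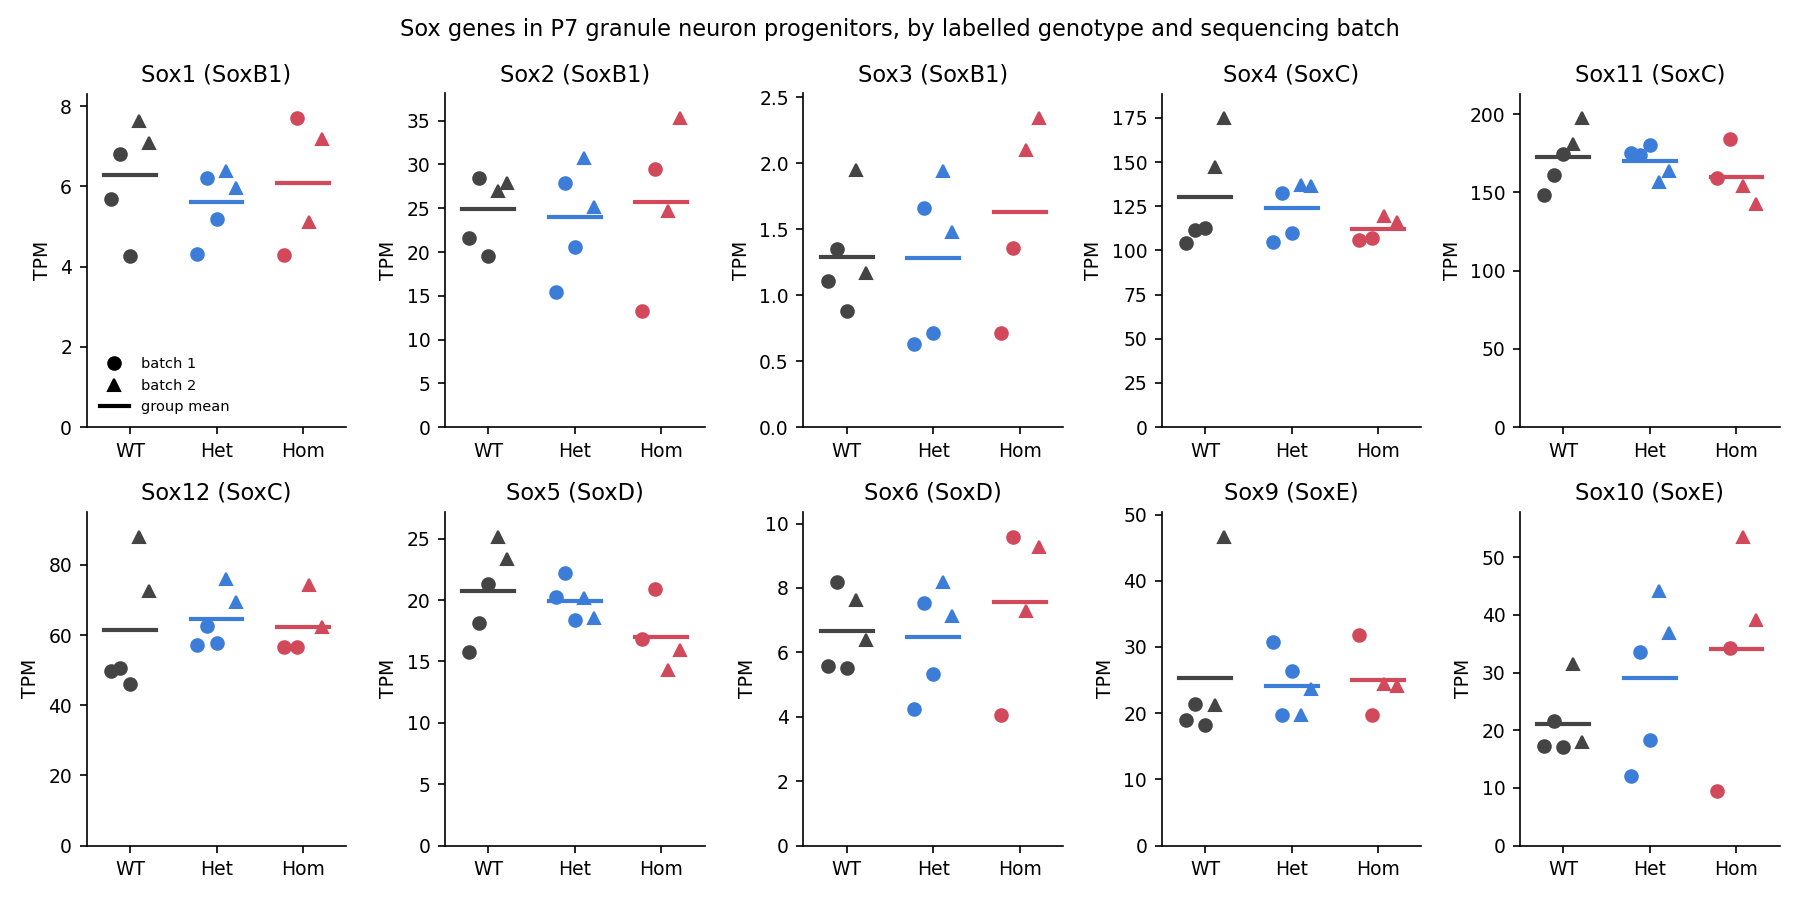
TPM of the 10 Sox genes on linear axes from 0, with 1 point for each of the 14 libraries, circles for batch 1 and triangles for batch 2, and bars for the mean of each labelled genotype. Sox4 in batch 2 runs from 147 and 175 in WT to 119 and 116 in Hom, while its batch 1 points lie together, and Sox9 has 1 WT library at 46.7.

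Whether homozygous Chd7 loss changes Sox gene expression was examined by comparing Hom with WT, with batch in the model. Of the 10 members, 0 were called in either direction (limma, adjusted p under 0.05), where 1.41% of all 17325 genes tested were called lower and 1.27% higher. The unadjusted p was under 0.05 for 1 member, Sox4, and for 14.9% of all genes. The median log2 change of the 10 members was -0.023, and that of all genes 0.024. Between Het and WT, 0 of 10 members passed at the adjusted or the unadjusted threshold (limma), where 0% of all genes were called lower, 0.00577% higher, and 6.08% passed unadjusted. Between Hom and Het, 0 of 10 were called lower and 0 higher (limma), where 0.277% and 0.15% of all genes were, and 0 passed unadjusted (6.18% of all genes). Het and Hom were compared with the same WT libraries.

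A rank test over the 3 genotypes gave the same count for these genes. It used the Kruskal-Wallis statistic, which the study names for 3 groups, on values with batch means removed. With labels permuted within batch over all 50400 arrangements, 0 of 10 members had an exact p under 0.01 or under 0.05, where 3.82% and 10.3% of all genes did. The lowest value was that of Sox4 (exact p = 0.0682). In 4 of 14 leave-outs 1 member was under 0.05: Sox4 without WT 1 (exact p = 0.0146) or Het 1 (0.0478), Sox12 without WT 4 (0.031) and Sox10 without Hom 1 (0.0448).

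**Figure D2:**
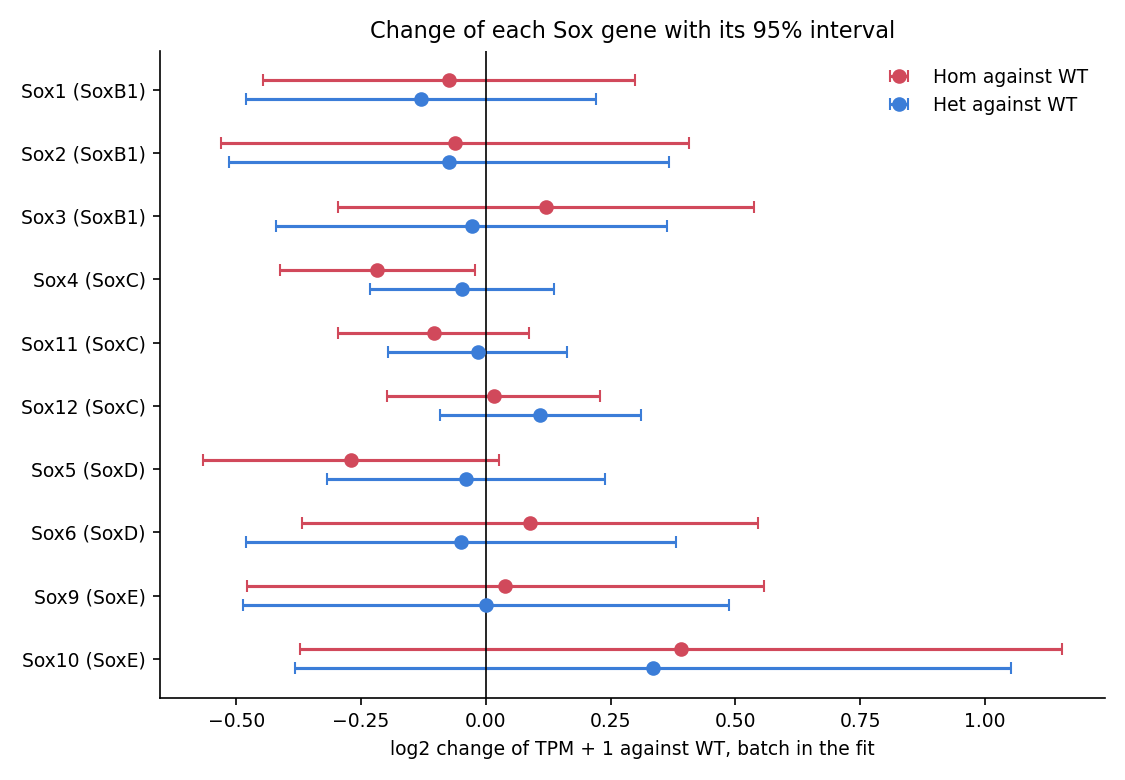
The log2 change of TPM + 1 in Hom and in Het against WT for each Sox gene, with batch in the fit and bars for the 95% interval. The interval of Sox4 in Hom (-0.41 to -0.02) does not reach 0, all others span it, and those of Sox10 are widest.

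Sox4, which drives neuronal differentiation together with Sox11, had a TPM of 104, 112, 113, 147 and 175 in WT 1 to 5. The Het libraries held 105, 133, 110, 137 and 137, and the Hom libraries 106, 107, 119 and 116. In batch 1 the groups overlap, and in batch 2 the Hom libraries lay below the Het libraries and these below the WT libraries. The Hom change was -0.22 (SE 0.091, 95% interval -0.41 to -0.02, unadjusted limma p 0.0322, adjusted p 0.278). An exact permutation test within batch gave p = 0.0667, and 0.0167 is the smallest value it can give. Without WT 5 the change was -0.14 (limma adjusted p 0.476). The Het change was -0.05 (SE 0.085, limma adjusted p 0.959).

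Sox11, the other activator of pan-neuronal genes, had a TPM of 148, 161, 174, 181 and 197 in WT 1 to 5. The Het libraries held 175, 174, 180, 156 and 164, and the Hom libraries 159, 184, 154 and 142. The groups overlap over both batches, while in batch 2 both Hom and both Het libraries lay below both WT libraries. In Hom the change was -0.10 (SE 0.089, 95% interval -0.30 to 0.09, limma adjusted p 0.643). The Het change was -0.02 (SE 0.083, limma adjusted p 0.986).

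Sox12, the third SoxC gene and a weaker activator, had a TPM of 49.7, 50.8, 46, 88 and 72.7 in WT 1 to 5. In Het it had 57.2, 62.7, 57.7, 76 and 69.5, and in Hom 56.5, 56.6, 74.2 and 62.2. Batch set most of its spread. All batch 1 Het and Hom libraries were above the batch 1 WT libraries, and in batch 2 the groups overlap. In Hom the change was 0.016 (SE 0.099, limma adjusted p 0.970), and it changed sign under median-ratio scaling (-0.015).

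Sox2, the SoxB1 factor known to bind Chd7, had a TPM of 21.6, 28.4, 19.6, 26.9 and 27.9 in WT 1 to 5. The Het libraries held 15.5, 27.9, 20.6, 30.7 and 25.1 and the Hom libraries 13.2, 29.5, 24.7 and 35.3. The lowest and the highest of the 14 values were both Hom libraries. The Hom change was -0.06 (SE 0.22, 95% interval -0.53 to 0.41, limma adjusted p 0.938). It changed sign in batch 2 alone (0.10).

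The other SoxB1 genes were low. Sox1, which is expressed in early neuroectoderm, ranged from 4.27 to 7.7 TPM over the 14 libraries, with a Hom change of -0.07 (95% interval -0.45 to 0.30). Sox3, a SoxB1 gene on the X chromosome, ranged from 0.63 to 2.34 TPM, with a Hom change of 0.12 (95% interval -0.30 to 0.54). The lowest and highest libraries of both genes come from more than 1 genotype, and the groups overlap.

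Sox5, a SoxD factor known for its role in the fate of deep-layer cortical neurons, had a TPM of 15.8, 18.1, 21.3, 25.2 and 23.3 in WT 1 to 5. The Het libraries held 20.3, 22.2, 18.4, 20.2 and 18.5 and the Hom libraries 16.8, 20.9, 14.3 and 16. In batch 2 both Hom libraries lay below both Het and both WT libraries, and in batch 1 the groups overlap. In Hom the change was -0.27 (SE 0.14, 95% interval -0.57 to 0.03, limma adjusted p 0.388). Sox6, its SoxD partner, ranged from 4.06 to 9.59 TPM with a Hom change of 0.09 (95% interval -0.37 to 0.55), and both extremes were Hom libraries.

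Sox9, which starts gliogenesis and marks astroglia, had a TPM of 19.1, 21.5, 18.2, 21.3 and 46.7 in WT 1 to 5. The Het libraries held 30.7, 19.7, 26.4, 19.8 and 23.7 and the Hom libraries 31.8, 19.7, 24.4 and 24. WT 5 was above every other library, and the groups overlap. The Hom change was 0.039 (SE 0.24, 95% interval -0.48 to 0.56, limma adjusted p 0.968), and without WT 5 it was 0.31 (limma adjusted p 0.422).

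Sox10, the SoxE factor that directs oligodendrocyte differentiation, had a TPM of 17.3, 21.6, 17.1, 31.5 and 18 in WT 1 to 5. The Het libraries held 12.1, 33.5, 18.2, 44.2 and 36.9 and the Hom libraries 9.45, 34.3, 53.6 and 39.2. The lowest and the highest of the 14 values were both Hom libraries, and the groups overlap. The Hom change was 0.39 (SE 0.35, 95% interval -0.37 to 1.15, limma adjusted p 0.669) and the Het change 0.34 (SE 0.33, limma adjusted p 0.904). The interval reaches past a rise of 1 on the log2 scale and stops short of a fall of that size.

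The batches were then compared, since the Chd7 TPM was lower in Hom only within batch 2. Between batches, 2 of 10 members were called, where 13.5% of all genes were. Sox12 was higher in batch 2 by 0.43 (SE 0.080, limma adjusted p 0.00559) and Sox4 by 0.32 (SE 0.073, limma adjusted p 0.0134). For the difference of the genotype effect between batches, 0 of 10 members were called for Hom or Het (limma), where 0.0115% and 0.00577% of all genes were.

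At an unadjusted p under 0.05 the Hom effect differed between batches for 4 members, all SoxC or SoxD genes, against 17.2% of all genes. Sox11 went from 0.09 in batch 1 to -0.35 in batch 2 (unadjusted limma p 0.00516, adjusted p 0.148). Sox5 went from 0.036 to -0.65 (adjusted p 0.158), Sox12 from 0.21 to -0.23 (adjusted p 0.185), and Sox4 from -0.039 to -0.44 (adjusted p 0.214). The 6 other members had an unadjusted p of 0.127 or more. The count was 2 without Hom 4 and 6 without Hom 2. For Het the count was 3 (Sox11, Sox12 and Sox5), against 9.3% of all genes, and it was 1 without Het 5 and 4 without Hom 1 or Hom 2.

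Within batch 2, Sox4, Sox5 and Sox11 were lower in both Hom libraries than in both WT libraries, which is 3 of 10 members beside 21.9% of all genes. Sox3 and Sox10 were higher, 2 of 10 beside 27%. In batch 1, 0 of 10 were lower without overlap (15.3% of all genes) and 1 was higher (17.6%), Sox12. For Het in batch 2 the counts were 4 lower (20.1%), which added Sox1, and 1 higher (16.2%), Sox10. In batch 1 they were 0 lower (6.74%) and 1 higher (8.73%), again Sox12. Read beside the shares of all genes, these counts set the Sox genes apart in neither batch.

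**Figure D3:**
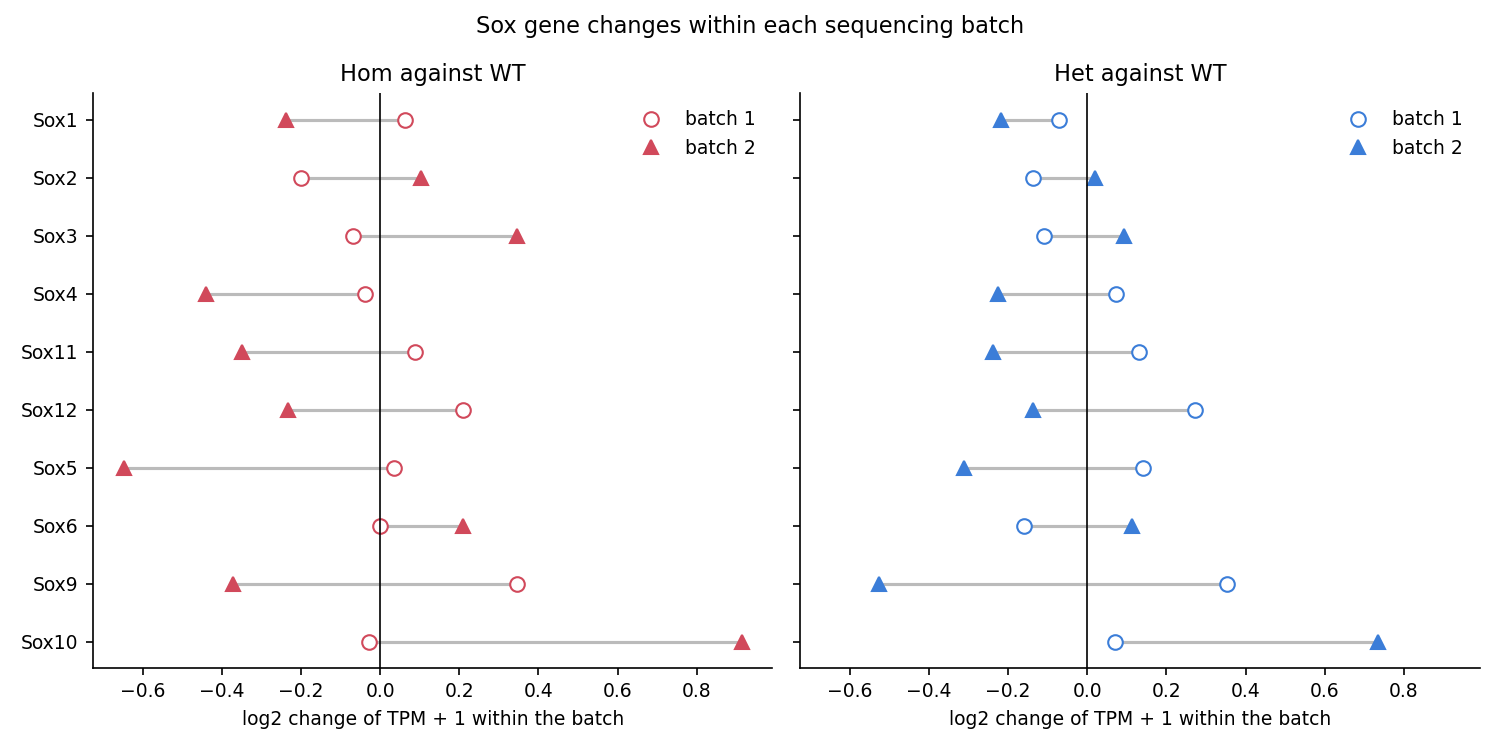
The log2 change of TPM + 1 against WT within batch 1 (open circles) and within batch 2 (filled triangles) for Hom (left) and Het (right), without error bars. Sox1, Sox4, Sox11, Sox12, Sox5 and Sox9 move to lower values in batch 2 in both panels, and Sox10 moves to 0.91 in Hom and 0.74 in Het.

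Which Sox genes vary together was examined over the 14 libraries on log2(TPM + 1) with batch means removed. Genotype means were kept, so shifts between genotypes can enter r and its p. Of the 45 pairs, 14 had an adjusted p under 0.05 (permutation within batch, Benjamini-Hochberg over 45), 11 positive and 3 negative. All pairs share libraries and the TPM scale. Of the 14 pairs, 7 stayed under the threshold in all other settings run and without each library in turn: Sox2-Sox6, Sox1-Sox2, Sox2-Sox3, Sox3-Sox6, Sox3-Sox10, Sox6-Sox10 and Sox5-Sox11. Sox3 lay at only 0.63 to 2.34 TPM, so its pairs rest on low values.

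The SoxB1 genes, Sox6 and Sox10 gave most of the positive pairs. Among their pairs, Sox1-Sox3 (r = 0.56, permutation p = 0.0562, adjusted p 0.169) and Sox1-Sox10 (r = 0.42, permutation p = 0.165, adjusted p 0.371) were not called. Sox2 and Sox6 had r = 0.94 (n = 14, permutation p = 6e-05, adjusted p 0.0027, rho 0.81, permutation p = 0.00238), and r = 0.92 without the 2 libraries farthest from the median of Sox2. Among 12301 genes, Sox6 was the likest of all to Sox2. Within batches the value was 0.96 in batch 1 and 0.77 in batch 2. Sox3 and Sox10 had r = 0.83 (permutation p = 0.00047, adjusted p 0.00705, rho 0.81, permutation p = 0.00175), 0.74 without the 2 farthest libraries, and 0.86 and 0.78 within the batches. Other pairs differed between the batches. Sox1 with Sox10 had 0.85 in batch 1 and -0.63 in batch 2, Sox2 with Sox10 had 0.95 and -0.019, and Sox1 with Sox3 had 0.83 and -0.085. Sox1 with Sox6 had 0.94 and 0.22.

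Sox5, Sox11 and Sox4 also ran together. Sox5 and Sox11 had r = 0.81 (n = 14, permutation p = 0.0021, adjusted p 0.0152, rho 0.85, permutation p = 0.001), 0.85 without the 2 farthest libraries, and 0.81 and 0.82 within the batches. Sox4 and Sox11 had r = 0.74 (permutation p = 0.00895, adjusted p 0.031, rho 0.66, permutation p = 0.025), and 0.67 without the 2 farthest libraries. This relation held in batch 2 (0.96) and not in batch 1 (0.26), and its adjusted p was 0.05 or more in 7 of the 14 leave-outs. The lowest was 0.56, without WT 5. The pair was also not called under quantile normalization or with batch means kept (r = 0.41). Sox9 went against Sox10 (r = -0.74, permutation p = 0.00583, adjusted p 0.0238, rho -0.42, permutation p = 0.159). That pair was not called without WT 5, Het 1 or Hom 1, and r was -0.45 without WT 5 and Hom 1. The other negative pairs were Sox9 with Sox3 (r = -0.72, rank permutation p = 0.114) and with Sox6 (r = -0.59, rank permutation p = 0.0686). Sox6-Sox9 lost its call in 10 of the 14 leave-outs. With batch means kept, 0 negative pairs were called.

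**Figure D4:**
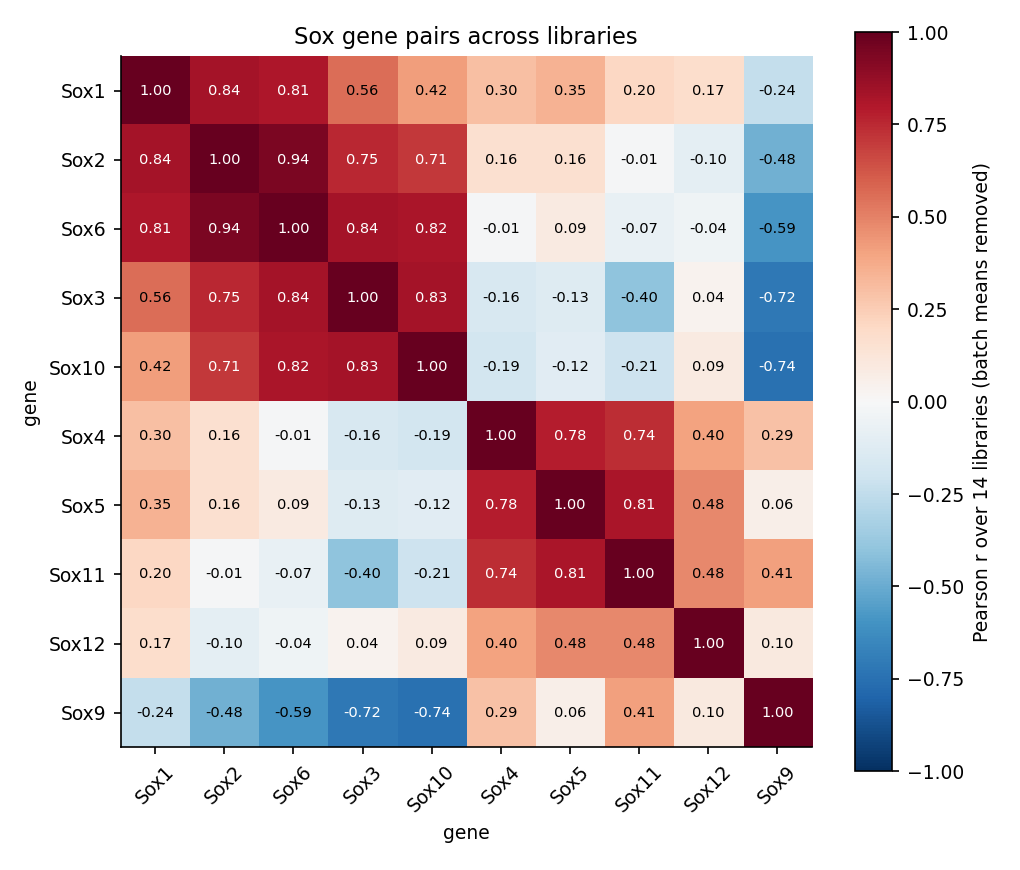
Pearson r of each pair of Sox genes over 14 libraries on log2(TPM + 1) with batch means removed, coloured from -1 (blue) to 1 (red) with the value in each cell. Sox1, Sox2, Sox6, Sox3 and Sox10 form a mostly red block, Sox4, Sox5 and Sox11 another, and the Sox9 row is blue against Sox3, Sox6 and Sox10.

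The genes of the whole table that ran most closely with each member were also named, as a description over the same 14 libraries with batch means removed and genotype means kept. Sox10 ran with Sirt2 (0.96), Fa2h (0.96) and Neu4 (0.96), which are known from oligodendrocytes. Sox6 ran with Ncam2 (0.96), Bcas1 (0.96) and Gjc3 (0.94), and Sox2 with Sox6, Necab2 (0.90) and Gjc3 (0.90). Bcas1 and Gjc3 are expressed in the oligodendrocyte lineage. Sox3 ran with S100a13 (0.94), Olig1 (0.92), an oligodendrocyte lineage factor, and Bcan (0.92). The likest genes of Sox4 were Pax6 (0.92), the homeobox factor of the granule lineage, Gab1 (0.92) and Zmat4 (0.91).

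Sox11 ran with Celf2 (0.93), Disc1 (0.92) and Tlk2 (0.92), Sox5 with L3mbtl4 (0.93), Ctps2 (0.93) and Ccdc71l (0.92), and Sox12 with Slc29a4 (0.94), Zcchc14 (0.94) and Dact3 (0.93). Sox1 had the loosest match, with Trim9 (0.88), Gm15846 (0.87) and Ptprt (0.86). The likest gene of Sox9 was Atoh1 (0.94), the basic helix-loop-helix factor that defines GNPs, followed by A430005L14Rik (0.94) and Ticrr (0.90), a replication factor.

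Atoh1 had a TPM of 21.3, 25, 25, 28.2 and 50.6 in WT 1 to 5, of 43.9, 22.4, 33.4, 24.4 and 31 in the Het libraries, and of 39.3, 20.8, 29.3 and 30 in the Hom libraries. Sox9 and Atoh1 were both highest in WT 5, and both were high in Het 1 and Hom 1. Other GNP markers differed: in WT 5 Pax6 was also highest (911 TPM), while Mki67 was 241 TPM, low in its range of 225 to 348. The relation of Sox9 with the whole list of progenitor markers was not tested. Leaving out 1 library at a time, the r of Sox9 with Atoh1 stayed between 0.93 and 0.95. Atoh1 was picked for the highest r with Sox9 among 12301 genes in these same libraries. These values are therefore not a test of the relation.

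Glial and neuronal marker levels were then set against the Sox genes, as 5 relations chosen from known roles, each over 14 libraries and adjusted over the 5. Marker level was the mean log2(TPM + 1) of the list. Unlike for the pairs of Sox genes, batch means were not removed here, so batch offsets enter these values, and values within batches and with batch means removed are given beside them. Genotype means were kept in all of them, so a shift shared between genotypes can enter r and its p. Sox10 followed the 12 oligodendroglial markers (r = 0.93, permutation p = 2e-05, adjusted p 1e-04, rho 0.87, permutation p = 0.00016, adjusted p 8e-04). The value was 0.88 without Het 1 and Hom 1, the 2 libraries farthest from the median marker level. It was 0.95 in batch 1, 0.95 in batch 2 and 0.95 with batch means removed (permutation adjusted p 5e-05), and leaving out 1 library at a time left it between 0.91 and 0.95. The summed marker TPM was 897 to 1701 in WT, 745 to 1936 in Het and 699 to 1758 in Hom. The groups overlap, as they do for Sox10. The part of these markers in the Sox10 values was not tested.

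Sox9 went against the 13 astroglial markers (r = -0.58, permutation p = 0.0303, adjusted p 0.0379, rho -0.49, permutation p = 0.0784, adjusted p 0.098). It was -0.70 without the 2 farthest libraries, -0.46 in batch 1 and -0.67 in batch 2. With batch means removed it was -0.55 and no longer called (permutation adjusted p 0.0573). Without WT 5 it was -0.40 (permutation adjusted p 0.22), and the adjusted p was 0.05 or more in 6 of 14 leave-outs. For Sox2 the relation with the same markers did not pass the threshold (r = 0.033, permutation p = 0.912, adjusted p 0.912, rho 0.051, permutation p = 0.869, adjusted p 0.869). The value was 0.38 within batch 1 and 0.45 within batch 2, 0.38 with batch means removed (permutation adjusted p 0.206), and -0.061 without the 2 farthest libraries.

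**Figure D5:**
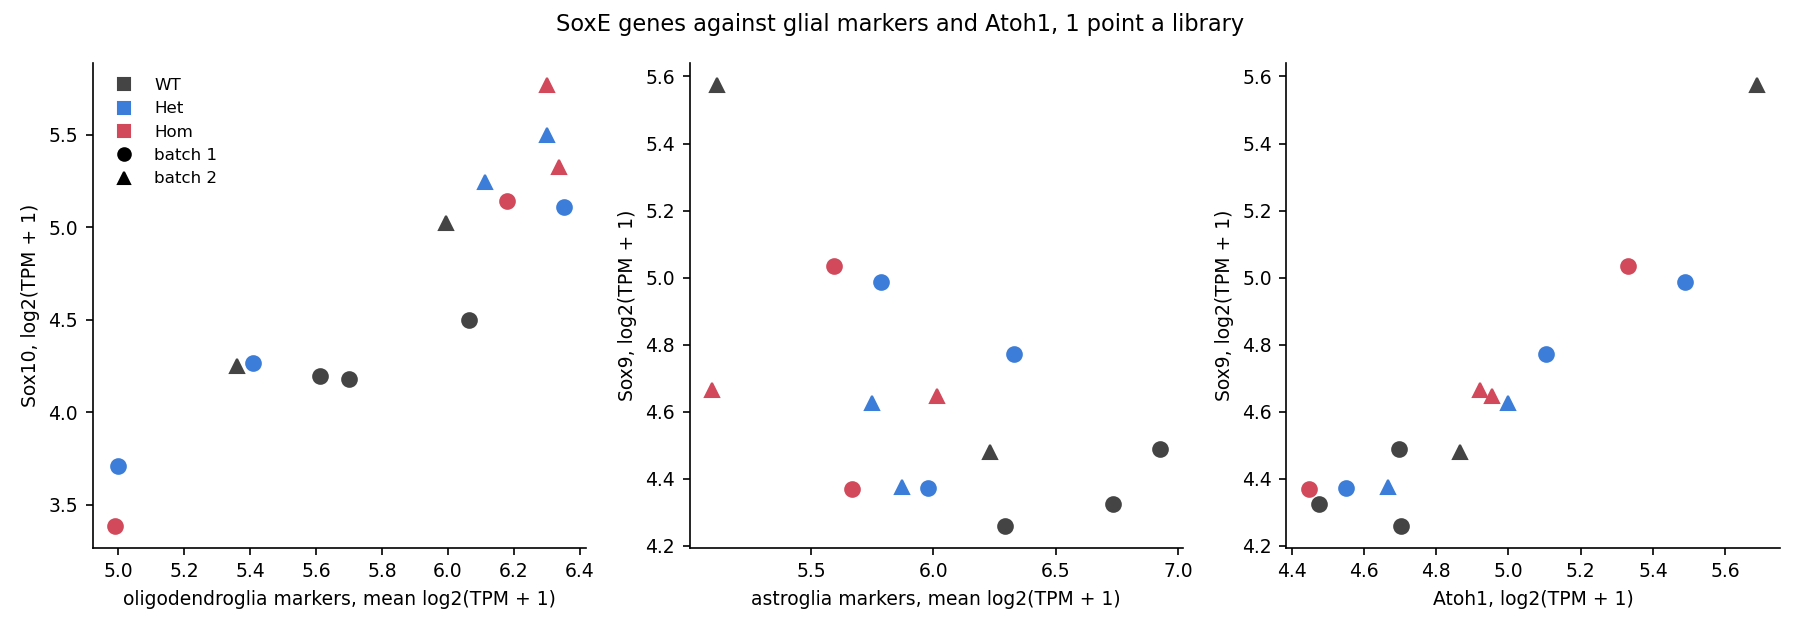
Sox10 against the mean level of oligodendroglial markers (left), Sox9 against that of astroglial markers (middle) and Sox9 against Atoh1 (right), all as log2(TPM + 1), with 1 point for each of 14 libraries, coloured by labelled genotype and shaped by batch. The left and right panels rise (r = 0.93 for Sox10, and 0.94 for Sox9 with batch means removed), the middle panel falls (r = -0.58), and WT 5 is the highest Sox9 point. Atoh1 was picked by its r with Sox9 in these libraries.

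Sox4 and Sox11 both ran with the 10 markers of early postmitotic granule cells by Pearson's r and did not pass by rank after adjustment. For Sox4 r was 0.63 (permutation p = 0.0176, adjusted p 0.0379, rho 0.59, permutation p = 0.0305, adjusted p 0.0592), and for Sox11 it was 0.60 (permutation p = 0.0237, adjusted p 0.0379, rho 0.57, permutation p = 0.0355, adjusted p 0.0592). With batch means removed r was 0.68 and 0.65 (permutation adjusted p 0.0415 for each), with rho of 0.68 and 0.72 (permutation adjusted p 0.0235 and 0.0198). Without Hom 2 and Hom 4, farthest from the median marker level, the values were 0.73 and 0.79. The relations held in batch 2 (0.86 and 0.90) and were weaker in batch 1 (0.28 and 0.21). Of 14 leave-outs, 4 for Sox4 and 7 for Sox11 gave an adjusted p of 0.05 or more. Without WT 5 the values were 0.47 and 0.46 (permutation adjusted p 0.183 for each).

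The genes that Sox factors are known to act on were examined as lists, some of which share genes with the marker lists. Of 5 SoxC targets, 1 was called lower in Hom and 0 higher, with a median change of -0.22 (all genes 0.024). This was Tubb3, a neuronal tubulin that is also in the list of early postmitotic markers, with a change of -0.38 (SE 0.071, limma adjusted p 0.0111). The next in size was Tead2, a factor of the Hippo pathway, with -0.25 (limma adjusted p 0.328). Of the 10 early postmitotic markers, 3 were called lower and 0 higher, with a median of -0.30: Neurod1 (-0.55, limma adjusted p 0.0116), a bHLH factor of differentiating granule cells, Stmn2 (-0.55, limma adjusted p 1.11e-04), a regulator of microtubules, and Tubb3. The summed TPM of all 10 markers was 3633 to 4481 in WT and 3092 to 3842 in Hom, so the groups overlap in the sum. Stmn2 was at 596 to 642 TPM in WT and 402 to 456 in Hom, without overlap. Neurod1 was at 679 to 1032 in WT and 501 to 596 in Hom, also without overlap, while Tubb3 overlaps. Neurod1 was not called in either batch alone (limma adjusted p 0.179 and 0.069), with the replicate block (0.123) or with Het left out (0.0504). Tubb3 was not called in either batch alone (limma adjusted p 0.0615 and 0.312), without a batch term (0.281) or with Het left out (0.0642). Stmn2 was not called in batch 2 alone (limma adjusted p 0.173). Whether the lower levels of these markers have a part in the lower Sox4 values was not tested.

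Of 7 SoxB targets, 0 were called in Hom (limma, 1 under an unadjusted p of 0.05), with a median of 0.15. The largest changes were those of Fabp7, a lipid-binding protein of radial and Bergmann glia that is also an astroglial marker here (-1.20, limma adjusted p 0.108), and Nes, an intermediate filament of progenitors (0.54, limma adjusted p 0.353). Of 7 SoxE targets tested among 8 listed, 0 were called (limma, 1 under an unadjusted p of 0.05), with a median of -0.029. They were led by Slc1a3, a glutamate transporter of astroglia (-0.86, limma adjusted p 0.161), and Nfia, a gliogenic factor (-0.20, limma adjusted p 0.473). Of 8 Sox partners tested among 9 listed, 0 were called (limma, 1 under an unadjusted p of 0.05). Pax6 had -0.28 (limma adjusted p 0.121) and Smarca4, a remodeller of the BAF complex, 0.20 (limma adjusted p 0.475). In Het, 0 genes of these 5 lists were called (limma), and 0 had an unadjusted p under 0.05.

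Markers of other cells were examined beside these lists. Of 13 astroglial markers 0 were called in Hom (limma, 6 under an unadjusted p of 0.05), 11 had a change below 0, and the median was -0.74. Hopx (-1.23, limma adjusted p 0.0745) and Fabp7 led them. The astroglial changes were not split by batch, and WT 1 to 3 held the highest Fabp7 values. Of 12 oligodendroglial markers 0 were called (2 under an unadjusted p of 0.05), with a median of 0.07 and with Cspg4 (0.68, limma adjusted p 0.0727) and Gpr17 (0.64, limma adjusted p 0.403) in front. Of 13 progenitor markers 1 was called, Ccnd1, a cyclin of cycling GNPs, which was higher by 0.80 (SE 0.080, limma adjusted p 1.11e-04), ahead of Ccnd2 (0.35, limma adjusted p 0.0693). The median of the progenitor list was 0.12, with 8 changes above 0 and 5 below. At an unadjusted limma p under 0.05, 4 were higher and 2 lower. The part of all these markers in the Sox values was not tested.

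The rest of the family was mostly low. Of 10 other Sox genes 6 were tested, and the 4 not tested had a TPM of at most 0.67 in any library. Sox18, a SoxF factor of endothelium, was the only one called, higher by 1.27 in Hom (SE 0.23, limma adjusted p 0.00884). Its TPM was 5.29, 5.82, 6.58, 15.2 and 17 in WT 1 to 5, 14.1, 20.9, 10.8, 13.5 and 22.3 in the Het libraries, and 19.3, 19.3, 31.2 and 29 in the Hom libraries. All Hom libraries were above all WT libraries. The Sox18 change was 1.56 within batch 1 (limma adjusted p 0.0358) and 0.86 within batch 2 (limma adjusted p 0.225). Sox18 was also not called without a batch term (limma adjusted p 0.0522) or with the replicate block (limma adjusted p 0.0644). Its call was kept in the remaining settings and in all 14 leave-outs.

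The other endothelial Sox genes ran higher without a call. Sox17 had a change of 0.87 (limma adjusted p 0.474) with a mean of 2.77 TPM over the 14 libraries, and Sox7 a change of 0.61 (limma adjusted p 0.616) with a mean of 3.53. The summed TPM of 8 endothelial markers was 32.1 to 214 in WT, 22.1 to 476 in Het and 113 to 355 in Hom. Of these markers 0 were called (limma, 5 under an unadjusted p of 0.05), with a median change of 1.55. This change was not split by batch, and WT 1 to 3 were low in Cldn5. The part of these markers in the Sox18 change was not tested. Sox8, the third SoxE gene, had a mean of 21.9 TPM and a change of 0.30 (limma adjusted p 0.711). Sox13, the third SoxD gene, had 5.62 TPM and 0.53 (limma adjusted p 0.355), and Sox21, a SoxB2 gene, had 1.95 TPM and -0.059 (limma adjusted p 0.930).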

How the data were processed

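Total RNA from 14 GNP libraries was analysed from 1 table of gene-level TPM. The authors made these TPM values from single-end 50-base reads with Bowtie 1.0.0 and RSEM 1.2.15 at default parameters on the Ensembl transcriptome of mm10, and the deposited values carry no read counts. The study states 1 approximate read number for all libraries. TPM keeps no depth for each library, so no counting error was computed. The study removed the batch effect with ComBat, and here batch was a term of the fit instead. Het 3 was placed in batch 1 after the study's methods, although its label follows the style of the later set.

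Values were analysed as log2(TPM + 1), which understates changes of low genes, for the 17325 genes that reached a TPM of 1 or more in 4 or more libraries. Genotype and batch were fitted in limma 3.58.1 (R 4.3.3, eBayes with intensity trend), two-sided, with Benjamini-Hochberg adjustment over all genes tested. A gene is called at an adjusted p under 0.05. Permutation tests used 100000 resamples, or all arrangements where called exact, and were two-sided. The limma fit was tested on simulated data with changes placed in Hom. The members and the gene lists were chosen with earlier results of these data known. Genes outside the 10 members were named by a rule: called genes and the 2 largest changes of each list, other Sox genes with a mean TPM of at least 1, and the 3 likest genes of each member with a mean TPM of at least 5. Results for markers of Purkinje cells, interneurons, microglia and meninges are given with the other observations. Alternatives changed 1 choice at a time: pseudocount, filter, scaling, batch, replicate block, samples, weights, trend, and each library left out. The settings of the interaction test, of the correlations between members and of the called list genes, the leave-outs for rank tests and marker relations, and the marker relations with batch means removed were added after seeing the data.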

Additional observations from a re-analysis of the deposited data

Results flagged for a closer look

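Sox9 in WT 5 stood apart, at 46.65 TPM, the highest of 5 WT libraries. The gap to the next WT library was 0.826 of the whole range on the log2 scale, above the critical value of 0.71 for 5 libraries. Chance gives such a value in about 5% of groups, and 30 sets of 1 gene in 1 genotype were examined, of which 1 passed. Atoh1 was also highest in WT 5, at 50.6 TPM.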

How the results depend on the processing

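Over 28 alternatives to each genotype contrast, 0 of 10 members were called in any of them, and the lowest limma adjusted p was 0.192 for Hom against WT (Sox4 without Het 2) and 0.333 for Het against WT (Sox12 in batch 1 alone). The interaction test and the rank test at 0.01 also gave 0 in all settings run, while the rank test at 0.05 gave 1 in 4 of 14 leave-outs. Of 279 alternative values in each contrast, 251 kept their direction for Hom and 245 for Het. Values that turned are given here, and the cause was not tested. For Hom against WT the sign changed in batch 1 alone for Sox1 (0.063), Sox3 (-0.067), Sox5 (0.036), Sox6 (-0.0014), Sox10 (-0.029) and Sox11 (0.088), in batch 2 alone for Sox2 (0.10), Sox9 (-0.37) and Sox12 (-0.23), with the replicate block for Sox3 (-0.021) and Sox12 (-0.047), with array weights for Sox3 (-0.0041), Sox6 (-0.13) and Sox10 (-0.051) and under median-ratio scaling for Sox12 (-0.015). For Het against WT it changed in batch 2 alone for Sox2 (0.020), Sox3 (0.094), Sox6 (0.11), Sox9 (-0.53) and Sox12 (-0.14), under quantile normalization for Sox3 (0.013) and Sox9 (-0.0047), in batch 1 alone for Sox4 (0.072), Sox5 (0.14) and Sox11 (0.13), under median-ratio scaling for Sox9 (-0.0083), with Het 3 in batch 2 for Sox9 (-0.037) and with array weights for Sox11 (0.023). Leaving out 1 library at a time, the sign for Hom against WT also turned for Sox1 (-0.25 to 0.035), Sox2 (-0.25 to 0.19), Sox6 (-0.11 to 0.31), Sox9 (-0.13 to 0.31) and Sox12 (-0.033 to 0.11). Leaving out 1 library at a time, the sign for Het against WT also turned for Sox2 (-0.18 to 0.034), Sox3 (-0.15 to 0.041), Sox4 (-0.11 to 0.027), Sox5 (-0.13 to 0.037), Sox6 (-0.14 to 0.053), Sox9 (-0.11 to 0.25) and Sox11 (-0.075 to 0.047). The marker relations lost their call without the top marker for Sox9 (r = -0.55 without Apoe, permutation adjusted p 0.0531) and for Sox11 (r = 0.55 without Neurod1, permutation adjusted p 0.0531). With batch means removed, the relation of Sox9 with astroglia was not called (r = -0.55, permutation adjusted p 0.0573). Leaving out 1 library, r ranged from -0.64 to -0.40 for Sox9, from 0.47 to 0.72 for Sox4, from 0.43 to 0.84 for Sox11 and from -0.12 to 0.12 for Sox2 with astroglia. The number of correlated member pairs was 11 to 14 in the other settings and 9 to 14 over the leave-outs, with 9 without Hom 1.

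Nothing in the labels says that a replicate number marks a shared litter or day, and not every same-numbered pair had a correlation over 0.1, so the libraries were not treated as paired. With group means removed it was 9 of 13 pairs (range -0.12 to 0.34), and 7 of 14 libraries were closest to their own number, as a hint from the data. With batch means removed too it was 5 of 13 (range -0.10 to 0.25). With the replicate block, 0 of 10 members were called in each contrast, and of the 7 other genes called in Hom 3 were still called and 4 were not. Those still called were Stmn2, Tubb3 and Ccnd1, and those not called were Neurod1, Lhx1, Pcp4 and Sox18. TPM keeps no depth, so limits from counting cannot be set, and 4 or 5 libraries a group limit the precision.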

Other observations

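The remaining cell type lists gave few calls beside the Sox genes. Of 7 Purkinje cell markers tested among 8 listed, 1 was called lower in Hom, Pcp4, a calmodulin-binding peptide (-1.73, SE 0.31, limma adjusted p 0.00914). Pcp4 was at 85.8, 94 and 76.2 TPM in WT 1 to 3, at 26.6 and 22.8 in WT 4 and 5 and at 12.3 to 15.3 in Hom, and its change was -2.41 within batch 1 (limma adjusted p 0.0178) and -0.84 within batch 2 (0.193). Calb1 followed the same libraries, with 17.6, 18.4 and 13.1 TPM in WT 1 to 3 and 1.76 and 0.61 in WT 4 and 5. Pcp2 had the largest change (-1.92, limma adjusted p 0.255). Of 7 inhibitory interneuron markers 1 was called lower, Lhx1, a LIM homeobox factor (-0.45, SE 0.11, limma adjusted p 0.0408), which was not called in 10 of 14 leave-outs, beside Pax2 (0.41, limma adjusted p 0.432). Of 8 microglial markers 0 were called (limma, 0 under an unadjusted p of 0.05), with Tmem119 (0.39) and Csf1r (0.26) in front, and of 6 meningeal markers 0 were called (limma, 0 under an unadjusted p of 0.05), with Ptgds (-0.23) and Col1a1 (0.22) in front. In Het 0 markers of these 4 lists were called (limma).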
